A study of Mus musculus with 37 samples.

Results

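The mediastinal node, which the sample titles tie to the lung, was compared with the deep cervical node in 3 libraries of each. These are 6 of the 37 libraries of a study that sequenced RNA on tagged ribosomes from mouse lymph nodes and spleen. They were chosen by site label alone, and all genes were compared. Both groups carried the same alleles. The labels give the mice as CD169 Cre KI/KI and Rpl22HA homozygous, name lymph node as the tissue and list cd169 macrophages as the cell type. Cre is expressed from the CD169 (Siglec1) locus, and the tagged ribosomal protein marks ribosomes of cells in which Cre acted at any time. One isotype control library, from the jejunal node, belongs to the study, and no such control of these 2 nodes was analysed here. No treatment, age or sex is labelled. The labels do not say whether replicates came from separate mice, so p-values measure only the spread between these libraries.

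In the RiboTag method an antibody against the haemagglutinin tag pulls down ribosomes with their mRNA from a tissue lysate, and RNA from untagged cells can carry over. CD169 is a sialic acid receptor of the macrophages that line the subcapsular and medullary sinuses, where they meet incoming lymph. Around the sinuses lie B cell follicles with follicular dendritic cells, and a T cell zone in which reticular fibroblasts make the chemokines Ccl19 and Ccl21, both read by the receptor Ccr7 on naive T cells and migrating dendritic cells. Nodes lie embedded in fat beside other organs. Thyroid, parathyroid, salivary, muscle, thymus, lung and fat transcripts are therefore described apart from immune genes.

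The mediastinal libraries held 41240156 to 69139450 counts and the deep cervical ones 2854863, 4847523 and 15808815 (replicates 1 to 3). A count of 3 corresponded to 0.0434 to 0.0727 CPM (counts per 1000000 counts) in mediastinal and 0.190 to 1.05 CPM in deep cervical libraries, so low genes were measured far less precisely in the deep cervical node. Genes with 10 or more counts numbered 19984 to 22134 against 11172 to 17370. Ribosomal sequence features made up 2.65% to 3.16% of mediastinal and 3.37% to 10.5% of deep cervical counts. The nuclear noncoding RNA Malat1 stood at 2950 to 6282 CPM against 6903 to 50540 CPM, highest in deep cervical replicate 1. Library profiles correlated at 0.978 or more within the mediastinal node, 0.826 to 0.921 within the deep cervical node and 0.753 to 0.890 between nodes. The deep cervical libraries stood apart from each other in organ transcripts: skeletal muscle genes were high in replicates 1 and 2, the salivary Dcpp genes in replicate 2, and heart muscle and parathyroid genes in replicate 3. The Y-linked gene Ddx3y stood at 76.8 CPM in mediastinal replicate 3 and 78.7 CPM in deep cervical replicate 1, and at 0.441 to 1.01 CPM in the other 4 libraries. Both nodes thus mixed libraries with high and low Ddx3y, so sex, which is not labelled, may vary within each node. Libraries numbered 1 and 3 also differed in Ddx3y between nodes.

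Of the 56351 genes in the table, 19530 passed the filter on low counts and 4020 of these (20.6%) differed between the nodes by edgeR's quasi-likelihood test at an adjusted p of 0.05. In the mediastinal node 1692 genes were higher (8.66% of those tested) and 2328 lower (11.9%), and the median log2 fold change over all genes was 0.003. Positive log2 fold changes mean higher in the mediastinal node throughout. The number of calls rested on single libraries. It was 1577 without deep cervical replicate 2 and 1664 to 2088 without any 1 mediastinal library, but 5208 without deep cervical replicate 1 and 6582 without replicate 3. In each of these 6 fits 405 of the 1692 higher and 868 of the 2328 lower genes were called again in the same direction.

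Genes of white blood cells in general were higher in the mediastinal node. Ptprc, the pan-leukocyte phosphatase CD45, stood at 231, 237 and 237 CPM in the mediastinal libraries and at 32.4, 51.0 and 47.7 CPM in the deep cervical ones. The groups lay far apart, with a log2 fold change of 2.42 ± 0.24 (SE; adjusted p = 0.000773). Of 29 genes shared by most leukocytes, 28 were tested and 28 were higher, with a median log2 fold change of 2.05. Among them were Cd52, a small leukocyte surface glycoprotein (894 to 1104 CPM against 143 to 223), and Selplg, the selectin ligand PSGL-1 (233 to 286 CPM against 41.5 to 60.4). In such bulk samples more cells of a type and more RNA per cell cannot be told apart. Immune lists are therefore also given relative to these leukocyte genes, a scaling chosen after the data were seen that moves the all-gene median from 0.003 to -1.86. It shifts all genes by about 1.86, so a list median between 0 and that value turns negative by construction, and the turn is nothing particular to a list. Under it 137 genes (0.701%) were higher and 14408 (73.8%) lower, and the members' counts are read against those shares.

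**Figure D1:**
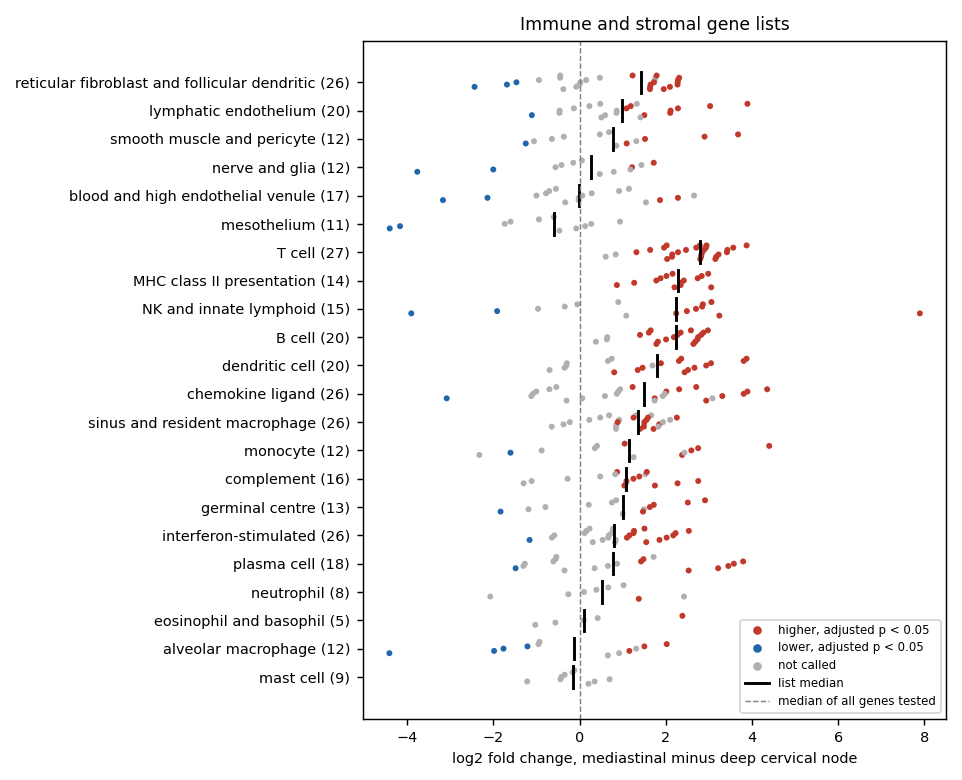
Log2 fold change between mediastinal and deep cervical node (horizontal axis) for each tested gene (points) of the immune and stromal lists (lines, number of genes tested in brackets), scaled over all genes. Colours mark genes that passed the test in either direction, black bars the list median and the dashed line the median of all genes tested, which lies at 0.003. Relative to leukocyte genes most of these medians turn negative. T cell genes have the highest median, at 2.80, and mesothelial genes the lowest, at -0.60.

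T cell genes had the highest median of the immune lists. Of 27 tested, 25 were higher in the mediastinal node and 0 lower, all 27 had groups of libraries that did not overlap (as did 23.1% of all genes, with mediastinal higher), and the median log2 fold change was 2.80. Relative to leukocyte genes the median was still positive, at 0.95, with 16 members higher and 1 lower. Summed over the list, the mediastinal libraries held 1985 to 2319 CPM and the deep cervical ones 369 to 613 CPM.

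Cd3g, a chain of the T cell receptor's signalling complex, stood at 201, 253 and 218 CPM in mediastinal and 23.6, 39.5 and 30.2 CPM in deep cervical libraries (log2 fold change 2.84 ± 0.26, adjusted p = 0.000631). Cd8a, the coreceptor of cytotoxic T cells, had 60.2, 80.2 and 74.8 CPM against 2.95, 7.72 and 6.78 CPM (3.56 ± 0.35, adjusted p = 0.00076). Neither gene overlapped between the nodes. Cd4, the helper coreceptor, had 58.0, 85.4 and 75.3 CPM against 3.37, 7.72 and 20.3 CPM (2.71 ± 0.54, adjusted p = 0.0117), and its adjusted p was 0.085 without deep cervical replicate 2. The chemokine receptor Ccr7 was the most changed member, with 41.4, 47.5 and 45.5 CPM against 2.52, 2.21 and 3.93 CPM (3.87 ± 0.31, adjusted p = 0.000389). It was also higher relative to leukocyte genes, by 2.04 ± 0.28 (adjusted p = 0.000424). The members that did not pass were the transcription factors Bcl11b (0.84 ± 0.39, adjusted p = 0.164) and Ikzf2 (0.61), the latter named after its value was seen. Leaving out each library in turn gave 21 to 25 higher members, and 20 of the 25 were called every time.

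Of 20 B cell genes 17 were higher and 0 lower, with a median of 2.23, which was 0.40 relative to leukocyte genes (6 higher, 3 lower). Cd79a, the signalling partner of the B cell receptor, stood at 928, 872 and 1126 CPM in mediastinal and 93.8, 139 and 166 CPM in deep cervical libraries (2.87 ± 0.29, adjusted p = 0.000784). Every mediastinal value was over 5 times every deep cervical one. Ighm, the heavy chain of IgM, had 1536, 1422 and 1381 CPM against 118, 320 and 512 CPM (2.19 ± 0.48, adjusted p = 0.0162). Bank1, a B cell scaffold protein, overlapped between nodes with 268, 211 and 221 CPM against 316, 142 and 83.6 CPM (adjusted p = 0.576). Without 1 library 14 to 20 members were higher, and 13 of the 17 were called in each of the 6 fits.

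Antibody genes were divided. Of 18 plasma cell genes, 7 were higher and 1 lower (Fkbp11, an endoplasmic reticulum chaperone, -1.48), with a median of 0.76 that turned to -1.10 relative to leukocyte genes. The higher ones included the IgG heavy chains. Ighg3 stood at 400.3, 316 and 767 CPM in mediastinal and 39.1, 59.6 and 37.0 CPM in deep cervical libraries (3.45 ± 0.41, adjusted p = 0.00133). Ighg1 (3.79 ± 0.72), Ighg2b (3.21 ± 0.29) and Ighg2c (3.58 ± 0.58) passed too. All 4 were called in each fit without 1 library and relative to leukocyte genes, where their log2 fold changes were 1.35 to 1.93. Igha, the heavy chain of the mucosal class IgA, had 184, 643 and 147 CPM against 12.2, 1382 and 19.7 CPM and did not pass (-0.54 ± 1.50, adjusted p = 0.829). Its deep cervical mean came from replicate 2 alone, and without that library its log2 fold change was 4.38 (adjusted p = 0.0302). Without 1 library the plasma cell list held 4 to 8 higher genes, fewest without mediastinal replicate 1, and 0 to 3 lower ones. Hsp90b1, a chaperone of the endoplasmic reticulum, leaned the other way without passing, at 1820 to 2511 CPM against 2381 to 8038 CPM (adjusted p = 0.0713).

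All 14 genes of the MHC class II pathway were higher in the mediastinal node, and the 2 groups of libraries overlapped for 0 of them. Of all genes 23.1% had groups that did not overlap, with mediastinal higher. Class II molecules show peptides from outside the cell to CD4 T cells. The list held their chains, the invariant chain Cd74, the H2-DM and H2-O peptide editors, the protease Ctss, the master regulator Ciita and the costimulators Cd80 and Cd86. Most class II genes share a promoter module in which an X box stands upstream of a Y box, the inverted CCAAT sequence. Promoter sequences from RefSeq (GRCm38.p6, from 250 bases before to 50 after the start) were at hand for 10 of the 14. The letters TGATTGG, from the Y box, stood on either strand in 7 of them, and in 7.82% of all 32851 promoters. The letters AACNNATG, from the core of the X box, stood in 6 (8.86% of all). AACNNATG with its start 8 to 45 bases before that of TGATTGG on the gene's strand occurred in 5 of the 10 and in 14 of all promoters (0.0426%). Stretches of 60 bases are shown from those 5 genes and from H2-Aa, which like H2-Oa had TGATTGG only. Whether these letters bear on the changes seen here was not tested. Capitals mark the matched letters, and the sequences run 5′ to 3′ along the gene's strand.
H2-Eb1: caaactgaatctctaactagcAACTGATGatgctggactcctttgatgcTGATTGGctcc
H2-Eb2: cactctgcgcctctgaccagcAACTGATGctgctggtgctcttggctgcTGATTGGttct
H2-DMb1: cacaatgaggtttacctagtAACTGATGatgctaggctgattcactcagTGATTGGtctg
H2-DMb2: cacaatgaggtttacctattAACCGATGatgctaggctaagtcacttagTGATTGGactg
H2-Ob: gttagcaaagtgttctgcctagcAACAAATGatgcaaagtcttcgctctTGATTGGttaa
H2-Aa: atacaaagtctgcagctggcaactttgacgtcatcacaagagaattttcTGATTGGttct
The first 5 lie on the plus strand at chr17:34305757-34305816, chr17:34325524-34325583, chr17:34153079-34153138, chr17:34145108-34145167 and chr17:34238797-34238856, and H2-Aa on the minus strand at chr17:34287863-34287922. In the 5 genes the start of AACNNATG lay 26 to 29 bases before that of TGATTGG. A match describes letters in this window and is not evidence of binding.

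H2-Ab1, a beta chain of I-A, stood at 2137, 2238 and 2644 CPM in mediastinal and 250, 497 and 825 CPM in deep cervical libraries (2.16 ± 0.42, adjusted p = 0.0103). Cd74, which chaperones class II chains, had 2556, 2950 and 4769 CPM against 77.4, 195 and 963 CPM (3.05 ± 0.85, adjusted p = 0.0378). For both genes deep cervical replicate 1 was lowest and replicate 3 highest. The call of Cd74 was kept in 2 of the 6 fits without 1 library. H2-Ob, a chain of the H2-O editor found mainly in B cells, had 107, 110 and 144 CPM against 6.73, 13.9 and 23.4 CPM (2.98 ± 0.42, adjusted p = 0.00253). H2-DMb2, of the H2-DM editor, varied least, with 270, 288 and 300 CPM against 55.1, 64.4 and 66.6 CPM (2.20 ± 0.21, adjusted p = 0.000655). Its neighbour H2-DMb1 had the smallest change of the list (0.86). Relative to leukocyte genes the median of the list was 0.42, down from 2.27, with 2 members higher and 1 lower. There H2-Ob (1.15 ± 0.35, adjusted p = 0.0177) and H2-Eb2 (0.98 ± 0.26, adjusted p = 0.0102) still passed, whereas H2-Ab1 (0.32, adjusted p = 0.441) and Cd74 (1.26, adjusted p = 0.163) did not. Without 1 library 6 to 14 members were higher, fewest without deep cervical replicate 2, and H2-DMb2, H2-Eb2, H2-Oa, H2-Ob and Ctss were among the 6 called every time.

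Genes of mature dendritic cells were among the most changed. Of 20 dendritic cell genes, 13 were higher and 0 lower, with a median of 1.79 that was -0.09 relative to leukocyte genes (3 higher, 7 lower). The 4 largest changes were in genes that dendritic cells switch on when they mature and migrate. Fscn1, an actin bundler of their dendrites, stood at 233, 291 and 228 CPM in mediastinal and 19.8, 26.5 and 43.4 CPM in deep cervical libraries (3.05 ± 0.33, adjusted p = 0.001). Ccl22, a chemokine that attracts T cells through Ccr4, had 24.5, 34.6 and 21.1 CPM against 2.52, 1.99 and 1.57 CPM (3.81 ± 0.36, adjusted p = 0.000675). Ccl17, which shares that receptor, had 4.44 to 7.91 CPM against 0 to 1.09 CPM (2.94 ± 0.60, adjusted p = 0.0127). Ccr7, given above, is also in the T cell list, and its change cannot be assigned to either cell type here. Relative to leukocyte genes Ccr7, Ccl22 (1.94, adjusted p = 0.00229) and Fscn1 (1.20, adjusted p = 0.00399) remained higher, and Ccl17 did not pass (1.13, adjusted p = 0.11). Tcf4, the plasmacytoid regulator, lay at 250 to 316 CPM against 321 to 362 CPM and did not pass (adjusted p = 0.344), while Siglech, a plasmacytoid receptor, passed (1.46 ± 0.33, adjusted p = 0.0185). The call of Siglech was kept in 2 of the 6 fits without 1 library. The higher count was 5 without deep cervical replicate 2 and 15 without replicate 1, and 5 of the 13 were called each time, among them Ccr7, Ccl22 and Fscn1.

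Chemokines of the T cell zone were far more abundant in the mediastinal node. Ccl21a had 1158, 1404 and 1231 CPM there and 37.0, 64.9 and 151 CPM in the deep cervical node (3.89 ± 0.51, adjusted p = 0.00212), a gap that passed in every fit without 1 library and relative to leukocyte genes (2.07 ± 0.43, adjusted p = 0.00332). Ccl19 had 1347, 1146 and 1064 CPM against 414, 172 and 133 CPM (2.31 ± 0.43, adjusted p = 0.00883), with a smaller value of 0.37 relative to leukocyte genes (adjusted p = 0.506). Ccl5, made by cytotoxic and memory T cells, had 37.8 to 55.1 CPM against 3.79 to 5.44 CPM (3.31 ± 0.29, adjusted p = 0.000536). Of 26 chemokine ligands 10 were higher and 1 lower (Cxcl14, -3.08), with a median of 1.49 that turned to -0.37 relative to leukocyte genes. Without 1 library 5 to 14 were higher, fewest without mediastinal replicate 2. Xcl1, a ligand for cross-presenting dendritic cells, rested on 2 counts over the deep cervical node against 302, a ratio of 20.1 (95% counting interval 5.50 to 166). In the 22 libraries of 1000000 counts or more, from 8 sites, scaled together, mean Ccl21a was 966 CPM in the mediastinal node and 4.59 to 163 CPM at the other 7 sites, and Ccr7 34.2 CPM against 0.901 to 12.4 CPM. The mediastinal node was thus the highest site for both.

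Siglec1, whose locus drives the Cre, stood at 0.845, 1.29 and 3.07 CPM in mediastinal and 0.421, 0.221 and 0.484 CPM in deep cervical libraries (2.10 ± 0.73, adjusted p = 0.0774). Its deep cervical replicates 1 and 2 lay under the level of 3 counts, so it was barely detected there. The mice carry Cre on both alleles of this locus (KI/KI). What that does to Siglec1 RNA was not tested, so its level is no gauge of the labelled cells in either node. Rpl22, the tagged gene, had 222, 261 and 218 CPM against 116, 152 and 172 CPM and did not pass (0.67 ± 0.23, adjusted p = 0.0746). Marco, a scavenger receptor of medullary macrophages that sinus lymphatic cells also express, had 2856, 2854 and 3058 CPM against 1429, 691 and 976 CPM (1.50 ± 0.31, adjusted p = 0.0123). Csf1r, the receptor for the growth factor CSF1, had 72.8, 135 and 128 CPM against 26.5, 23.2 and 60.5 CPM (1.59 ± 0.42, adjusted p = 0.0321). Its call was kept in 2 of the 6 fits without 1 library. Cd68, a lysosomal glycoprotein (1.93 ± 0.73, adjusted p = 0.0981), and Adgre1, the antigen F4/80 (0.84 ± 0.61, adjusted p = 0.355), did not pass. For Csf1r, Cd68 and Adgre1 deep cervical replicate 3 was the highest of its node.

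Of 26 macrophage genes tested, 10 were higher and 0 lower, with a median of 1.36 that turned to -0.50 relative to leukocyte genes, where 0 were higher and 9 lower (73.8% of all genes were lower there). Cd209b, the lectin SIGN-R1 of medullary macrophages, had the largest change that passed, with 166, 284 and 265 CPM against 32.0, 29.3 and 86.8 CPM (2.26 ± 0.46, adjusted p = 0.0123). Cd5l, a secreted protein of tissue macrophages, had 63.7, 58.9 and 67.3 CPM against 18.5, 15.4 and 18.9 CPM (1.85 ± 0.22, adjusted p = 0.00136) and was the single member called in every fit without 1 library. The transcription factor Maf had 389, 542 and 489 CPM against 794, 478 and 393 CPM and did not pass (adjusted p = 0.631). Relative to leukocyte genes it was lower in the mediastinal node, at -2.16 ± 0.38 (adjusted p = 0.00141), whereas Marco (-0.41, adjusted p = 0.319) and Csf1r (-0.27, adjusted p = 0.504) did not pass. The higher count was 2 without mediastinal replicate 2 and 19 without deep cervical replicate 3, and without mediastinal replicate 2 the adjusted p of Marco was 0.0849.

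Of 16 complement genes 9 were higher and 0 lower (median 1.08, and -0.78 relative to leukocyte genes), and of 27 lysosomal genes 7 were higher and 0 lower (0.77 and -1.06). C1qa, of the recognition unit that starts the classical complement cascade, had 902, 1388 and 1158 CPM against 599, 559 and 728 CPM (0.87 ± 0.25, adjusted p = 0.0446). Its call was kept in 1 of the 6 fits without 1 library. Relative to leukocyte genes C1qa was lower, by -1.02 ± 0.25 (adjusted p = 0.00717). C6, of the membrane attack complex, was the most changed complement gene, with 28.9 to 39.3 CPM against 3.21 to 7.50 CPM (2.75 ± 0.37, adjusted p = 0.00221). Cfd, the protease adipsin made by fat cells, had 1209, 1770 and 686 CPM against 498, 3524 and 3906 CPM (adjusted p = 0.281), and its list holds that organ transcript. Psap, a precursor of lysosomal activators, had 5196, 6722 and 5508 CPM against 2387, 2698 and 2906 CPM (1.12 ± 0.24, adjusted p = 0.0157). Its call was kept in 2 of the 6 fits without 1 library. Of 15 iron genes 4 were higher and 0 lower, and of 20 lipid genes 4 were higher and 1 lower. In neither list was any gene called in every fit without 1 library. The iron exporter ferroportin, Slc40a1, had 47.1, 104 and 53.9 CPM against 5.05, 9.04 and 16.7 CPM (2.67 ± 0.48, adjusted p = 0.00752). Its adjusted p was 0.064 without deep cervical replicate 2. Apoe, the lipid carrier, had 4718, 7502 and 5636 CPM against 965, 1130 and 2579 CPM (1.93 ± 0.42, adjusted p = 0.0164). Its call was kept in 3 of the 6 fits without 1 library. Without 1 library 3 to 13 complement and 1 to 15 lysosomal genes were higher, and 3 and 1 were called every time.

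Of 12 monocyte genes 5 were higher and 1 lower (median 1.15, and -0.71 relative to leukocyte genes). Ly6c2, the Ly6C antigen, had 16.2, 23.3 and 29.1 CPM in mediastinal and 0, 0 and 2.06 CPM in deep cervical libraries (4.40 ± 0.82, adjusted p = 0.00841), although reads may be shared with its near copy Ly6c1. F13a1, a transglutaminase of monocytes and resident macrophages, had 15.7, 27.0 and 14.6 CPM against 40.0, 60.2 and 72.8 CPM (-1.60 ± 0.34, adjusted p = 0.0143), and -3.47 ± 0.31 relative to leukocyte genes. The list held 2 to 8 higher genes without 1 library, and the adjusted p of F13a1 was 0.0906 without deep cervical replicate 2.

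Of 15 NK and innate lymphoid genes 8 were higher and 2 lower (median 2.24, and 0.42 relative to leukocyte genes). Nkg7, a granule protein, had 43.6, 52.8 and 43.5 CPM against 4.63, 9.04 and 7.38 CPM (2.70 ± 0.30, adjusted p = 0.00106). Prf1, the pore former perforin, had 9.22 to 12.3 CPM against 1.03 to 1.26 CPM (3.24 ± 0.36, adjusted p = 0.00112). Klra8, the NK receptor Ly49H, had 146 counts in mediastinal libraries and 0 in deep cervical ones, at least 6.46-fold higher against 3 counts over the group. Its call was kept in 1 of the 6 fits without 1 library. Without 1 library 5 to 10 of the list were higher. The lower genes were Areg, the growth factor amphiregulin, and Gata3, a regulator of type 2 lymphocytes. Gata3 is also a parathyroid gene, and it had 38.4, 38.6 and 28.6 CPM against 167, 150 and 81.5 CPM (-1.91 ± 0.31, adjusted p = 0.00489).

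Of 26 interferon-stimulated genes tested 11 were higher and 1 lower (Rsad2, the antiviral enzyme viperin, -1.16), with a median of 0.80 that turned to -1.01 relative to leukocyte genes, where 0 were higher and 12 lower (of all genes 73.8% were lower). Gbp5, a guanylate-binding protein induced by interferon gamma, had 24.8, 23.6 and 30.7 CPM against 5.05, 3.09 and 5.38 CPM (2.53 ± 0.32, adjusted p = 0.00168). Ifi27l2a was among the most abundant members and did not pass (0.16, adjusted p = 0.847). The higher count was 3 without deep cervical replicate 2.

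**Figure D2:**
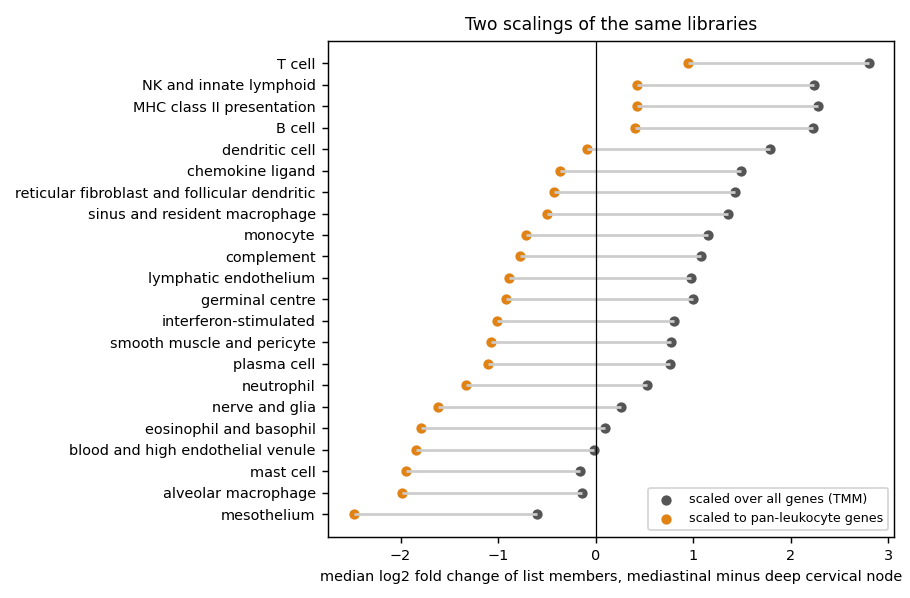
Median log2 fold change of each immune and stromal list (horizontal axis) under scaling over all genes (TMM, grey) and under scaling to pan-leukocyte genes (orange). T cell, NK, MHC class II and B cell lists keep a positive median under both, at 0.95, 0.42, 0.42 and 0.40 in the latter, and the macrophage list passes from 1.36 to -0.50.

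Of 26 reticular and follicular dendritic genes 12 were higher and 3 lower, with a median of 1.43 that turned to -0.43 relative to leukocyte genes. Clu, the chaperone clusterin and a follicular dendritic cell gene, had 670, 675 and 594 CPM against 73.2, 99.7 and 226 CPM (2.28 ± 0.42, adjusted p = 0.00798). Mfge8, a bridging protein that those cells secrete for the removal of dying B cells, had 519, 486 and 435 CPM against 80.4, 84.3 and 171 CPM (2.10 ± 0.34, adjusted p = 0.00453). Cr2, a complement receptor of follicular dendritic and B cells, had 298, 251 and 284 CPM against 46.3, 34.2 and 90.8 CPM (2.27 ± 0.37, adjusted p = 0.00486). Lower were Pi16, Cd34 and the collagen gene Col1a1. Pi16, a marker of fibroblasts around vessels, had 7.92, 8.22 and 8.77 CPM against 44.6, 52.5 and 38.1 CPM (-2.44 ± 0.24, adjusted p = 0.000764). The general fibroblast gene Dcn did not pass (240 to 265 CPM against 210 to 508, adjusted p = 0.358). The higher count was 5 without mediastinal replicate 2.

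Most lymphatic genes that were called were higher in the mediastinal node. Of 20 tested 8 were higher and 1 lower (median 0.97, and -0.89 relative to leukocyte genes). The higher ones included Marco, Ccl21a and Madcam1, which other lists hold too. Madcam1, the ligand of the gut-homing integrin, which marks the sinus floor, follicular dendritic cells and some venules, had 30.9, 29.3 and 24.0 CPM against 5.47, 4.19 and 7.26 CPM (2.28 ± 0.30, adjusted p = 0.00217). Stab2, a scavenger receptor of sinus endothelium, had 6.27 to 7.63 CPM against 0 to 1.54 CPM (3.03 ± 0.60, adjusted p = 0.011). The vein and lymphatic regulator Nr2f2 was lower (83.4 to 107 CPM against 144 to 280, -1.11 ± 0.28, adjusted p = 0.0284). Its call was kept in 2 of the 6 fits without 1 library. Without 1 library 4 to 10 lymphatic genes were higher.

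Of 17 blood vessel genes 2 were higher and 2 lower, with a median of -0.02. These counts lie near the shares of all genes, 8.66% higher and 11.9% lower, so the genes below are single genes and not a trend of the list. The capillary genes Flt1, a VEGF receptor (35.9, 33.5 and 27.7 CPM against 330, 309 and 235, -3.17 ± 0.25, adjusted p = 0.00036), and Emcn, endomucin (9.10, 11.3 and 10.3 CPM against 24.4, 49.9 and 59.7, -2.14 ± 0.35, adjusted p = 0.00494), were lower in each of the 6 fits without 1 library, with an adjusted p of up to 0.0483 for Emcn. Fut7, a fucosyltransferase of high endothelial venules, was higher (8.87 to 13.9 CPM against 2.21 to 3.81, 1.86 ± 0.37, adjusted p = 0.0106). Glycam1, a mucin of those venules, did not pass, with 1860.0, 2048 and 672 CPM against 95.1, 72.8 and 556 CPM (2.66 ± 0.82, adjusted p = 0.0537).

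Outside all these lists, B4galnt1, an enzyme of ganglioside synthesis, was among the most raised genes that the naming rule chose. It had 77.8, 94.4 and 90.6 CPM in mediastinal and 3.79, 3.75 and 4.42 CPM in deep cervical libraries (4.44 ± 0.25, adjusted p = 0.000117). The groups lay far apart with little spread, and the gene was higher in every fit without 1 library and relative to leukocyte genes (2.58 ± 0.22). Across sites in libraries of 1000000 counts or more its mean was 66.9 CPM in the mediastinal node, 24.2 to 41.2 CPM in ileal, inguinal, super cervical and ceco-colonic node, and 2.95 CPM in the deep cervical node. Its values at the remaining sites are not given here, so no rank of the deep cervical node follows. Ctsw, cathepsin W of cytotoxic lymphocytes, had 26.2, 28.9 and 19.4 CPM against 2.10, 1.32 and 1.51 CPM (3.97 ± 0.35, adjusted p = 0.000527). Apol7c, of the apolipoprotein L family, had 130, 174 and 103 CPM against 14.3, 6.62 and 7.86 CPM (3.87 ± 0.37, adjusted p = 0.00068). Other genes with the largest increases were the epithelial enzymes Cyp2a5 (6.19 ± 0.82) and Adh7 (4.20 ± 0.77) and the smooth muscle protein Cnn1 (3.68 ± 0.75), all highest in mediastinal replicate 3 and lowest in replicate 2.

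Homeobox and T-box factors record where along the body a tissue formed. Of 35 positional genes tested 0 were higher and 8 lower in the mediastinal node (median -0.84), and 7 of the 8 were called in every fit without 1 library. Tbx3 had 2.89, 2.14 and 2.99 CPM in mediastinal and 124, 132 and 87.7 CPM in deep cervical libraries (-5.41 ± 0.30, adjusted p = 0.000117). Hoxb6 had 0.236, 0.259 and 0.174 CPM against 5.47, 5.29 and 8.71 CPM (-4.89 ± 0.45, adjusted p = 0.000631). Hoxb8 had 0.0676, 0.0707 and 0.227 CPM against 4.63, 3.53 and 3.81 CPM (-4.91 ± 0.60, adjusted p = 0.00152). Hoxb5 (-2.92 ± 0.41) and Hoxb7 (-2.73 ± 0.40), the neighbours of these in the Hoxb cluster, were lower too. Hoxb4, the next gene on the other side, stood at 29.6 to 38.2 CPM against 39.1 to 71.1 CPM and did not pass (-0.67 ± 0.28, adjusted p = 0.127). Nor did Hoxa5 (-0.35, adjusted p = 0.484). Tbx15 was high in deep cervical replicates 1 and 2, at 34.5 and 23.6 CPM, and at 0.847 CPM in replicate 3, inside the mediastinal range of 0.518 to 0.963 CPM.

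Across sites of deeper libraries mean Hoxb6 was 0.170 CPM in the mediastinal node, 4.80 CPM in the deep cervical node and 0 to 3.36 CPM elsewhere, with 0 in the super cervical node. Hoxb7 was 1.02 CPM in the mediastinal node, 6.60 CPM in the deep cervical node, 21.5 CPM in the ileal node and 0 in the super cervical node. The deep cervical node was thus not the highest site for Hoxb7. Tbx3 was 84.7 CPM in the deep cervical node and 0.890 to 4.20 CPM at the other 7 sites. The parts that thyroid and parathyroid RNA, given next, play in these values were not tested.

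Thyroid and parathyroid genes were abundant in all 3 deep cervical libraries and near 0 in the mediastinal ones. Tg, the thyroid hormone precursor thyroglobulin, had 1.59, 1.13 and 4.43 CPM in mediastinal and 1859, 4539 and 13000 CPM in deep cervical libraries (-11.39 ± 1.12, adjusted p = 0.00074). Foxe1, a thyroid transcription factor, had 0.0844, 0.0942 and 0.334 CPM against 414, 711 and 540 CPM (-11.56 ± 0.67, adjusted p = 0.000117). Of 14 follicle genes 11 were lower in the mediastinal node and 0 higher, with a median of -6.77. Slc26a7, an iodide transporter, had 2 counts against 1283, a ratio of 4831 (95% counting interval 1335 to 39940). Hhex, a factor shared with B cells, did not pass (44.8 to 53.1 CPM against 56.8 to 76.1, adjusted p = 0.246).

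Calca, which encodes calcitonin of thyroid C cells, had 0.997, 1.18 and 2.92 CPM against 5962, 9609 and 8487 CPM (-12.19 ± 0.68, adjusted p = 0.000117). Pth, parathyroid hormone, had 0.304, 0.235 and 1.46 CPM against 223, 848 and 7007 CPM (-11.94 ± 1.76, adjusted p = 0.00321). The 2 hormones did not run in parallel across the deep cervical libraries, since Pth was highest in replicate 3 and Calca in replicate 2. Of 12 genes of these cells 9 were lower and 0 higher. In the deeper libraries of the other 7 sites mean Calca was at most 17.2 CPM.

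**Figure D3:**
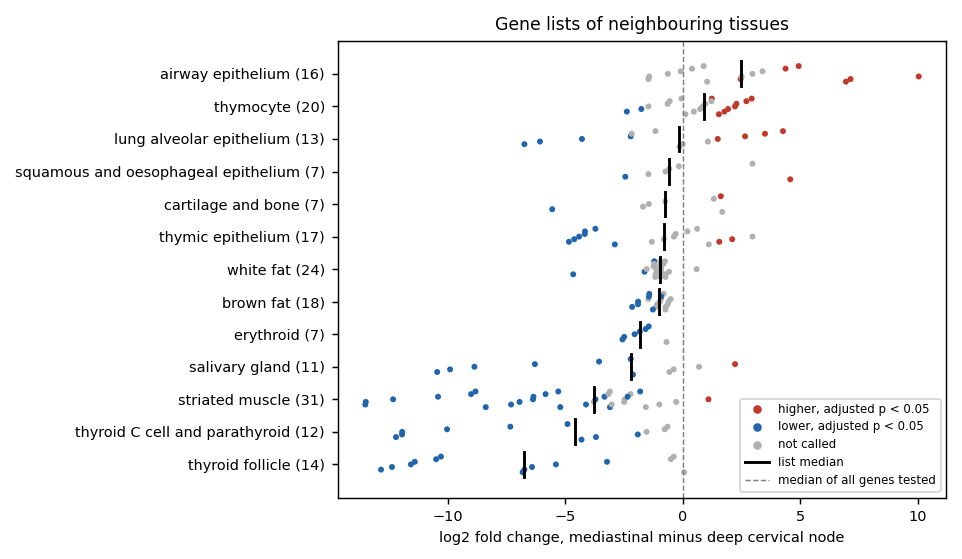
Log2 fold change between mediastinal and deep cervical node (horizontal axis) for each tested gene (points) of the neighbouring-tissue lists (lines, number of genes tested in brackets), with the list median as a black bar and the median of all genes, 0.003, as a dashed line. Airway genes have a median of 2.48, and thyroid follicle genes one of -6.77.

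Several of the most lowered genes outside the organ lists had high values in all deep cervical libraries. Asgr1, a subunit of the asialoglycoprotein receptor, had 1.57, 0.636 and 2.28 CPM against 1190, 1454 and 522 CPM (-9.44 ± 0.71, adjusted p = 0.00032). Folr1, a folate receptor, had 0 to 0.152 CPM against 74.9 to 127 CPM (-10.28 ± 0.73, adjusted p = 0.000255). Sall1, a zinc finger regulator, had 0.0134 to 0.0471 CPM against 29.9 to 76.3 CPM (-11.11 ± 0.64, adjusted p = 0.000117), and Cdh16, a cadherin of kidney and thyroid, 0.0401 to 0.101 CPM against 12.2 to 51.0 CPM (-8.78 ± 0.72, adjusted p = 0.000406). Cryba2 had 1 count in mediastinal and 1794 in deep cervical libraries, a ratio of 13510 (2422 to 534000), and Igfn1 2 against 1982, a ratio of 7464 (2063 to 61670). Tnmd, of tendon cells, had 3 against 563, a ratio of 1413 (481 to 6874). Spink8, a protease inhibitor, and Rhcg, an ammonia transporter, each lay at 0 to 0.0534 CPM in the mediastinal node and at 34.6 to 91.2 and 24.0 to 37.0 CPM in the deep cervical node.

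Airway genes had the highest median of the organ lists. Of 16 airway genes tested 6 were higher and 0 lower, with a median of 2.48, and 0.64 relative to leukocyte genes. The median was 1.50 without mediastinal replicate 3 and 5.47 without deep cervical replicate 2. Scgb1a1, the club cell secretoglobin, had 876, 361 and 2297 CPM in mediastinal and 2.10, 1.32 and 0.665 CPM in deep cervical libraries (10.03 ± 0.94, adjusted p = 0.000655). Scgb3a2 had 302, 109 and 686 CPM against 5.05, 4.19 and 0.302 CPM (7.13 ± 1.12, adjusted p = 0.00421). Bpifa1, an airway defence protein, had 64.3, 43.0 and 284 CPM against 0.421, 1.99 and 0.786 CPM (6.94 ± 0.95, adjusted p = 0.00238). All 3 were highest in mediastinal replicate 3 and lowest in replicate 2. Scgb3a1, which gland ducts also make, did not pass, with 251, 122 and 712 CPM against 24.0, 504 and 1.39 CPM (adjusted p = 0.66), and its deep cervical level came from replicate 2. Krt15, a keratin of basal and squamous epithelium, was higher as well (12.7 to 106 CPM against 1.03 to 3.97, 4.57 ± 0.87, adjusted p = 0.00943).

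Of 13 genes of lung alveoli tested 4 were higher and 4 lower, with a median of -0.14. Without 1 library 1 to 4 were higher, fewest without deep cervical replicate 2, and 2 to 5 lower. Sftpd, surfactant protein D, had 17.0, 6.24 and 30.6 CPM against 0.421, 2.21 and 0.423 CPM (4.26 ± 0.84, adjusted p = 0.0106). Nkx2-1, which thyroid and lung share, was lower, with 2.37, 0.871 and 3.99 CPM against 152, 340 and 283 CPM (-6.73 ± 0.65, adjusted p = 0.000682). Ager, the receptor for glycation end products and an alveolar type 1 marker, had 8.78, 6.74 and 6.81 CPM against 382, 604 and 514 CPM (-6.07 ± 0.31, adjusted p = 0.000117). The alveolar macrophage list was also mixed, with 3 higher and 4 lower of 12.

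Muscle genes were lower in the mediastinal node, in 20 of 31 tested, with 1 higher and a median of -3.78. The lower count was 10 to 19 without 1 library, and the genes were high in different deep cervical libraries. Tnnc2, troponin C of fast skeletal muscle, had 0.270, 0.141 and 0.107 CPM against 3931, 2072 and 13.3 CPM (-13.48 ± 2.10, adjusted p = 0.00412). Pvalb, parvalbumin, had 0.283 to 0.524 CPM against 4973, 1571 and 12.5 CPM (-12.32 ± 2.07, adjusted p = 0.00558). Both were low in replicate 3. Myh6, the atrial myosin heavy chain, had the opposite order, with 22.3, 86.9 and 76.6 CPM against 0, 9.04 and 2535 CPM. It did not pass (-3.78 ± 2.12, adjusted p = 0.242), and without deep cervical replicate 3 its log2 fold change was 3.62 (adjusted p = 0.0231). The member that was higher was Des, the intermediate filament desmin, which smooth muscle and fibroblasts share (1.09 ± 0.29, adjusted p = 0.0313).

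Among salivary gland genes the Dcpp family was high in deep cervical replicate 2. Of 11 genes tested 7 were lower and 1 higher in the mediastinal node, with a median of -2.21, and the lower count was 3 to 8 without 1 library. Dcpp3, a secreted protein of sublingual gland, had 0.118, 0.118 and 0.374 CPM in mediastinal and 0.842, 3995 and 42.4 CPM in deep cervical libraries (-12.60 ± 2.91, adjusted p = 0.0208). Dcpp1 and Dcpp2, its near copies between which reads may be shared, had 449 and 1043 CPM in that library. Lactoferrin (Ltf) and Igha were high in it as well, at 408 and 1382 CPM. Klk1b26, a submandibular kallikrein, was even across the deep cervical libraries (8.42, 11.7 and 9.56 CPM), with 231 counts against 3 in the mediastinal node, a ratio of 580 (196 to 2833).

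Fat genes had medians nearer to 0 than thyroid or muscle genes. Of 24 white fat genes 0 were higher and 3 lower, near the 11.9% of all genes, with a median of -0.95, and of 18 brown fat genes 0 were higher and 7 lower (-1.03). Fabp4, the fatty acid carrier of fat cells and vessels, had 5101, 3363 and 3831 CPM against 4919, 7011 and 11860 CPM (-0.95 ± 0.37, adjusted p = 0.106). Ucp1, the uncoupling protein of brown fat, had 283, 230 and 242 CPM against 150, 240 and 856 CPM (adjusted p = 0.402), present in all 6 libraries and highest in deep cervical replicate 3. Prdm16, a regulator of brown fat, passed (6.45 to 8.77 CPM against 24.8 to 42.1, -2.15 ± 0.30, adjusted p = 0.00248). The lower white fat count was 1 without mediastinal replicate 1 and 13 without deep cervical replicate 1, and the brown fat count 1 without deep cervical replicate 2. In the deeper libraries mean Ucp1 was 192 CPM in the mediastinal and 306 CPM in the deep cervical node and at most 4.33 CPM at the other sites.

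The genes that define thymocytes and thymic epithelium most strictly, Rag1, Rag2 and Foxn1, had too few counts to be tested. Rag1 had 0 to 2 counts in mediastinal and 0 to 7 counts in deep cervical libraries, and Rag2 1 to 9 and 0 to 2. Foxn1 had 1, 0 and 3 counts against 1, 5 and 12. By plain totals that was 0 to 0.0434 CPM against 0.350 to 1.03 CPM, higher in each deep cervical library but on few counts. Rag1, Rag2 and Foxn1 were named after their values were seen. Of 20 thymocyte genes 8 were higher and 2 lower (median 0.91, and -0.93 relative to leukocyte genes), but the higher ones included Cd4 and Cd8b1, which mature T cells share, and Ly6d, which B cells share (572, 658 and 737 CPM against 140, 149 and 115). The higher thymocyte count was 4 without deep cervical replicate 2 and 11 without replicate 3, and 3 of the 8 were called in each of the 6 fits. Of 17 thymic epithelial genes 2 were higher and 7 lower (-0.81). The lower ones were led by genes of epithelia in general, such as Krt8 (18.5, 8.20 and 73.2 CPM against 971, 753 and 396) and Epcam (9.16 to 14.6 CPM against 115 to 247). Pax1 and Pax9, factors of the pharyngeal pouches from which thymus and parathyroid form, had 0.120 to 0.695 CPM against 3.97 to 8.04 CPM.

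Red cell genes were lower in the mediastinal node, in 6 of 7 tested, with a median of -1.83. Hba-a2, an alpha globin, had 764, 720 and 697 CPM against 5598, 4520 and 2769 CPM (-2.56 ± 0.32, adjusted p = 0.00158), and reads may be shared with its copy Hba-a1. Alas2, the haem synthesis enzyme of red cell precursors, had 4.98 to 6.15 CPM against 17.7 to 29.6 CPM (-2.05 ± 0.29, adjusted p = 0.00285).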

How the data were processed

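RNA from ribosome pull-downs was sequenced from polyadenylated RNA, per the labels' protocols. The authors deposited 1 table of estimated counts per gene for all libraries. The submitters' processing notes name kallisto, edgeR and limma without versions or roles, and name GRCm39 beside mm10, so no coordinates of counted genes are given. How transcripts were summed to genes, and whether values were scaled before deposit, is not given in the sources used here, so 1 count need not be 1 read. In the 6 libraries 99.1% of nonzero values differed from the nearest whole number by over 0.001, and values were rounded for the count model. Strand use in counting is not stated. Overlapping and antisense genes are therefore uncertain, as are near copies such as Hba-a1 and Hba-a2, the Dcpp genes, Trbc1 and Trbc2, and Ly6c1 and Ly6c2.

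Tests used edgeR 4.0.16 in R 4.3.3: filterByExpr (minimum count 10, minimum total 15), TMM scaling, a robust quasi-likelihood fit of the 6 libraries with 1 mean per node, and Benjamini-Hochberg adjustment across the tested genes at 0.05. CPM use TMM-adjusted totals and are comparable only within a gene, and standard errors were recovered from the F statistic. The fit was tested on simulated counts. Floors of 3 counts and 95% intervals of count ratios cover counting error only. Alternatives were other scalings (DESeq2 size factors, plain totals, TMM without organ genes), DESeq2 1.42.0, limma 3.58.1 (voom), other filters, more libraries, a replicate block and leaving out each library.

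Members and gene lists were chosen with earlier results of these data known. Lists share members, and a shared gene counts in each of its lists, so their counts are not independent. Marco is in the macrophage and lymphatic lists, and Ccl21a in the chemokine and lymphatic lists. Madcam1 is in the lymphatic, blood vessel and reticular lists, and Cr2 in the B cell, complement and reticular lists. The rule for named genes took 7 set genes, the 12 most changed genes per direction outside organ lists that passed, did not overlap and reached 10 CPM, up to 6 abundant and 3 most changed members per list, members against their list's direction, positional genes that passed and sex-linked genes. Ikzf2, H2-DMb1, Fkbp11, Cxcl14, Rsad2, Cd34, Col1a1, Hoxa7 and Hoxd8 were named after their values were seen. Promoter sequences are those of RefSeq (GRCm38.p6). Some genes that the rule names are not reported here.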

Additional observations from a re-analysis of the deposited data

How the results depend on the processing

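The 4020 calls (1692 higher, 2328 lower) were 9109 (4524 and 4585) with limma voom and 1426 (459 and 967) in a fit of all 36 libraries without the isotype control. DESeq2 gave 2673 higher genes, a mean of 10 CPM or more left 1450 lower genes, and scaling to pan-leukocyte genes, chosen after seeing the data, gave 14545 calls (137 and 14408). Leaving out 1 library gave 1577 to 6582 calls, 499 to 3331 higher and 1069 to 3251 lower. Each of those fits holds fewer samples, and calls rose to 5208 without deep cervical replicate 1 and 6582 without replicate 3. The cause of the range was not tested. Calls shared with the fit as reported kept their direction under every alternative, except under pan-leukocyte scaling, where 2465 of 2834 did. The share of higher genes among calls was 42.1%, and 31.6% without deep cervical replicate 2, 32.2% over 36 libraries and 0.942% with pan-leukocyte scaling. Of 254 named genes called, 131 to 245 kept the call when 1 library was left out, and 222 to 254 under the other scalings, DESeq2, voom, no filter and the replicate block. Of those tested there, 143 of 236 kept it over 36 libraries, 206 of 251 in libraries of 1000000 counts or more and 192 of 198 at a mean of 10 CPM. With 1 library left out the log2 fold change of Igha ran from -1.48 to 4.38 (without deep cervical replicate 2) and that of Myh6 from -4.36 to 3.62 (without deep cervical replicate 3). With the replicate block Igha (2.03) and Myh6 (1.61) also turned sign, without passing, as did Myh6 with voom (1.96). The median of all genes moved from 0.003 to 0.169 with plain totals, 0.306 with no filter and -0.358 with DESeq2. The labels give both nodes replicate numbers 1 to 3. Deviations of same-numbered libraries correlated at 0.38, 0.016 and 0.32, and those of differently numbered ones at -0.41 to 0.11. Whether the numbers pair libraries cannot be told from these correlations. Ddx3y stood at 0.709 CPM in mediastinal and 78.7 CPM in deep cervical replicate 1, and at 76.8 and 0.665 CPM in replicates 3. By this Y-linked gene the same-numbered libraries 1 and 3 do not look like pairs from 1 mouse. The replicate block treats them as pairs all the same. With the replicate block there were 4906 calls (2344 and 2562). Mediastinal replicate 2 correlated best with deep cervical replicate 3, at 0.11. Depth limits low genes: deep cervical replicate 1 cannot resolve differences near 1.05 CPM.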

Other observations

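Gene programs not tied to 1 cell type also held called genes. Over all genes 8.66% were higher and 11.9% lower. Relative to leukocyte genes 73.8% of all genes were lower. There the cell cycle and ribosomal protein lists held 0 higher genes, with 16 of 28 and 74 of 79 lower. Of 28 cell cycle genes 11 were higher in the mediastinal node and 0 lower (median 0.90). The higher count was 2 without mediastinal replicate 2 and 15 without deep cervical replicate 1, and 1 of the 11 was called in each of the 6 fits without 1 library. Mcm3, part of the replicative helicase, had 128, 138 and 130.2 CPM against 23.1, 45.7 and 58.9 CPM (1.62 ± 0.33, adjusted p = 0.0123), and 5 of the 6 fits without 1 library kept the call. Of 79 cytosolic ribosomal protein genes 13 were higher and 0 lower (median 0.48), and the higher count was 0 without deep cervical replicate 2 and 28 without replicate 3. Nuclear genes of the respiratory chain leaned the other way, with 7 of 28 lower and 0 higher (-0.52). Cox6b1, a subunit of cytochrome oxidase, had 765 to 1052 CPM against 1742 to 1871 CPM. Its call, and those of the other 6, did not hold in each fit without 1 library.

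Of 11 retinoic acid genes 3 were higher and 2 lower, against 8.66% and 11.9% of all genes. Aldh1a2, which dendritic and stromal cells use to make retinoic acid, had 3.60, 8.31 and 4.19 CPM in the mediastinal and 0, 1.76 and 0.786 CPM in the deep cervical node (2.53 ± 0.70, adjusted p = 0.0376). Its call was kept in 1 of the 6 fits without 1 library, and relative to leukocyte genes it did not pass (0.68, adjusted p = 0.39). Aldh1a3, a related epithelial enzyme, had 2.02 to 2.43 CPM against 10.5 to 26.3 CPM (-2.93 ± 0.42, adjusted p = 0.00275).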
